A study of Mus musculus with 8 samples.

Results

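The CpG island regions of axon guidance ligands and receptors were followed on 8 methylation arrays of mouse cells and tissues. They were taken as all non-control probes whose gene name in the array design is an Epha, Ephb, Efna, Efnb, Plxna, Plxnb, Plxnc, Plxnd, Slit, Robo or Ntn gene with a number, or a Sema gene with a number and a letter. This gave 588 probes of 55 genes, of which 554 probes were usable on every array. Joining probes whose starts lie up to 500 bp apart and asking for at least 3 probes left 82 regions of 49 genes, out of 13148 regions on the whole array. They comprise 26 regions of 13 Eph receptors, 9 regions of 7 ephrins, 12 regions of 7 plexins, 23 regions of 15 semaphorins, 5 regions of 3 Slit genes, 4 regions of 2 Robo genes and 3 regions of 2 netrins. Efnb3, Ntn3, Ntn5, Plxna3, Sema3e and Sema4f had 1 or 2 probes each and formed no region of their own.

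Each array set antibody-bound DNA against input DNA of the same sample, after immunoprecipitation of sonicated, denatured DNA with an antibody to 5-methylcytidine. The groups were liver and spleen of aid-/- C57BL6/J mice at 6 months, liver and spleen of mbd4-/- C57BL6/J mice at 6 months, and embryonic stem (ES) cells that were aid-/-, mbd4-/-, Gadd45a knock down or wild type. Every group is 1 array, no wild-type liver or spleen was used here, and the tissue DNA of both genotypes came from different laboratories per the labels. Aid is a cytidine deaminase, Mbd4 is a glycosylase that binds methylated CpG, and Gadd45a is a stress response protein; all have been studied in DNA demethylation. The labels give neither the sex of the animals and lines nor how the knockdown was made, and whether each mutant line is 1 clone is not stated in them.

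Axon guidance molecules steer growing nerve fibres and also shape vessels, epithelia and immune cell traffic. Ephrins are membrane-bound ligands of the Eph receptor tyrosine kinases, semaphorins signal through plexins, Slit proteins through Robo receptors, and netrins through receptors such as Dcc. Many of these genes start in a CpG island, a stretch rich in CpG that is usually unmethylated, while islands further inside genes are more often methylated. The precipitated fragments are longer than a probe, so a probe reports on the CpGs around it and not on its own alone.

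A value below is the log2 ratio of bound to input signal, averaged over a region's probes after the array's median was subtracted; an SD beside it is over probes, which are not replicate samples. The plateau is the 98th percentile of autosomal regions on an array, and a region at or above 50% of it is called high. Neither is a methylation percentage. Plateaus differed between arrays, at 2.23 in aid-/- liver, 2.24 in aid-/- spleen, 4.03 in mbd4-/- liver, 3.66 in mbd4-/- spleen, 4.36 in aid-/- ES cells, 4.31 in mbd4-/- ES cells, 2.83 in Gadd45a knockdown ES cells and 3.38 in wild-type ES cells. Between 70.6% (aid-/- ES cells) and 96.2% (mbd4-/- liver) of probes had a bound signal well above background, and every member region had at least 1 such probe on every array. Regions of a gene are numbered 5′ to 3′, except for Ntn1, Plxna1, Sema3b and Sema6a, whose strand was not in the promoter table and whose regions are numbered by coordinate.

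The probes below carry the main contrasts of this family and are shown as deposited, with CpG in capitals; their genomic strand was not determined. Epha2 encodes a receptor of A-type ephrins. Its region 3 (chr4:140864326-140865102, mm9) was high on every array but the Gadd45a knockdown.
Epha2 region 3, probe 1: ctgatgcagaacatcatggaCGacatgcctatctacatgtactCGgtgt
Epha2 region 3, probe 2: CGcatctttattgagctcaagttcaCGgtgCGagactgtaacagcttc
Epha2 region 3, probe 3: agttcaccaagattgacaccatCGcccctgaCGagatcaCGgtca
Epha2 region 3, probe 4: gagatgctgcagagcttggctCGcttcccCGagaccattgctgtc
Epha2 region 3, probe 5: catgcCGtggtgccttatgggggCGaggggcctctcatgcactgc
Epha2 region 3, probe 6: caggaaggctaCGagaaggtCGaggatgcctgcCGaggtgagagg
Epha2 region 3, probe 7: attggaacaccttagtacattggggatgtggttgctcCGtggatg
Epha2 region 2 (chr4:140857120-140857874, mm9) shares bases with the Epha2 promoter window and stayed between −0.59 in the Gadd45a knockdown and 0.30 in wild-type ES cells. Probe 1 is the one that matches the window, and probe 2, the next along, has 6 CpGs.
Epha2 region 2, probe 1: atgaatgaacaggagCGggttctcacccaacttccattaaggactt
Epha2 region 2, probe 2: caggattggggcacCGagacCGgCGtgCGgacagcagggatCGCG
Plxnb2 encodes a semaphorin 4 receptor of the plexin B class, and its region 3 (chr15:88997813-88998232, mm9) had the highest mean of the 82 regions. The last of its 4 probes holds no CpG and was still at 4.21 in mbd4-/- liver and 3.58 in wild-type ES cells.
Plxnb2 region 3, probe 1: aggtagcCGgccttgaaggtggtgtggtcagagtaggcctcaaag
Plxnb2 region 3, probe 2: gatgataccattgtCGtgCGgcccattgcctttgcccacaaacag
Plxnb2 region 3, probe 3: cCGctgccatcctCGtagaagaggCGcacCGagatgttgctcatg
Plxnb2 region 3, probe 4: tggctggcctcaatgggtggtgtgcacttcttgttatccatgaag
Sema6b encodes a transmembrane semaphorin. Its region 1 (chr17:56288089-56288354, mm9) was at 51.0%, 46.1% and 48.5% of the plateau in aid-/-, mbd4-/- and wild-type ES cells, so it was high in aid-/- only. On the knockdown and tissue arrays it was at 20.5% or less.
Sema6b region 1, probe 1: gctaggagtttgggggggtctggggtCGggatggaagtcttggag
Sema6b region 1, probe 2: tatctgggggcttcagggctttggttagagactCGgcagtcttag
Sema6b region 1, probe 3: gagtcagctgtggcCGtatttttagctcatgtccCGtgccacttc

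Whether these genes' islands are methylated was read first from their level on each array. Most stayed below 50% of the plateau: 59 of the 82 regions were high on no array (72.0%, against 83.4% of all 13148 regions), and 6 were high on all 8 arrays (7.32%, against 3.74% of all regions). A further 6 regions were high on 7 arrays, and for each of them the exception was the Gadd45a knockdown. The 12 regions high on 7 or 8 arrays belong to Epha2, Epha8, Ephb2, Ephb3, Ephb4, Plxna1, Plxnb2, Ntn1 and Sema3b. Of the 82 members, 18 were high in aid-/- liver, 19 in aid-/- spleen, 18 in mbd4-/- liver, 18 in mbd4-/- spleen, 15 in aid-/- ES cells, 15 in mbd4-/- ES cells, 9 in the knockdown and 13 in wild-type ES cells. The share was highest in aid-/- spleen, at 23.2% of members and 9.77% of all regions, and lowest in the knockdown, where 7.77% of all regions were high. Member medians lay between 0.00 in aid-/- ES cells and 0.21 in aid-/- spleen.

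**Figure D1:**
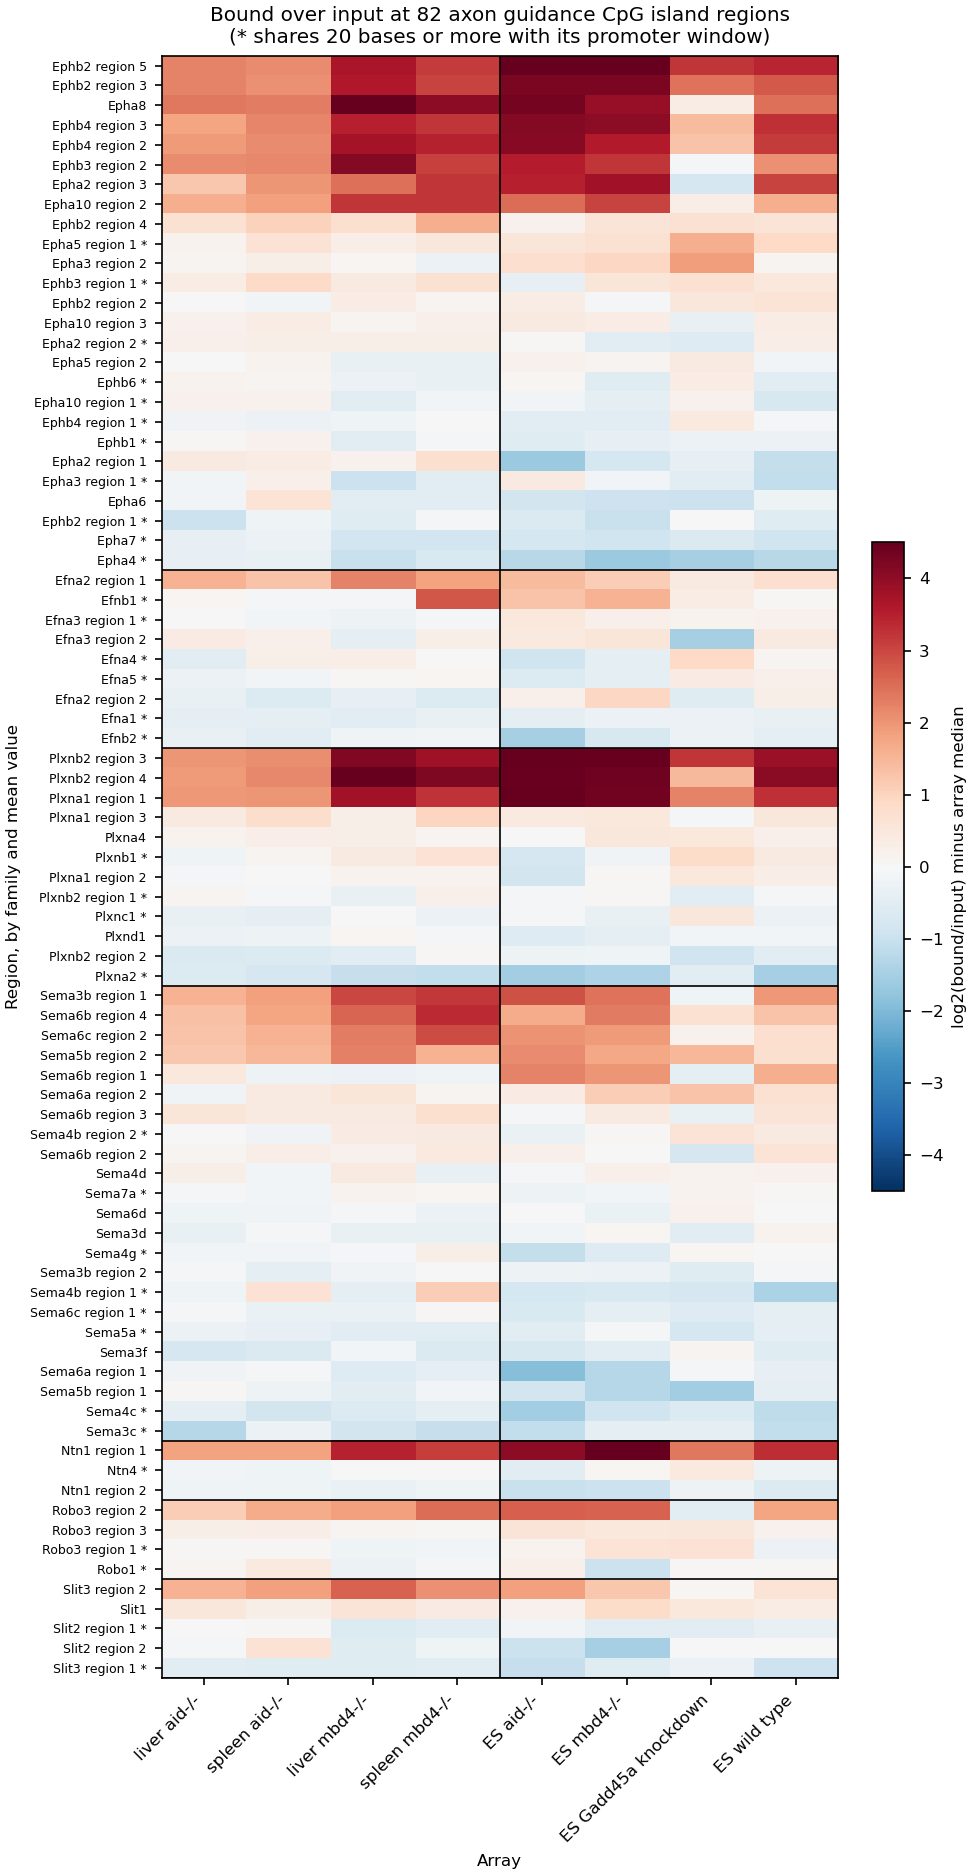
Each row is 1 of the 82 regions and each column 1 array, with colour giving the log2 ratio of bound to input minus the array median and black lines parting the families and the tissue from the ES arrays. A few rows per family are red across nearly all arrays, and most of those fade in the Gadd45a knockdown column; regions marked with an asterisk share at least 20 bases with the gene's promoter window.

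The Eph receptors, the largest family, held the most high regions. In aid-/- liver 30.8% of their regions were high, against 9.2% of all regions. Other families ran from 0.0% (Robo, 4 regions) to 33.3% (netrins, 3 regions), with plexins at 25.0%. In the knockdown the share was 15.4% for Eph receptors and 25.0% for plexins, against 7.77% of all regions. Ephb2, a receptor of B-type ephrins, has 5 regions, of which region 3 (chr4:136326759-136327426) and region 5 (chr4:136249666-136250046), both in mm9, were high throughout. Ephb2 region 5 was at 2.23 in aid-/- liver, 2.13 in aid-/- spleen, 3.66 in mbd4-/- liver, 3.16 in mbd4-/- spleen, 4.69 in aid-/- ES cells, 4.51 in mbd4-/- ES cells, 3.20 in the Gadd45a knockdown and 3.43 in wild-type ES cells. Region 3 of the same gene was at 2.22 and 3.61 in the liver of aid-/- and mbd4-/- mice, 2.06 and 3.05 in their spleen, and 4.24, 4.22, 2.44 and 2.75 in aid-/-, mbd4-/-, knockdown and wild-type ES cells. In log2 units both regions were lower in aid-/- than in mbd4-/- tissue and highest in the mutant ES lines. As a share of the plateau the tissue order was reversed. Region 5 was at 100% in aid-/- and 90.9% in mbd4-/- liver, and at 95.0% and 86.4% in spleen. Region 3 was at 99.5% and 89.6% in liver, and at 92.0% and 83.4% in spleen. On that scale region 5 was highest in the knockdown (113%) and region 3 in aid-/- liver. The promoter region of Ephb2 was at −0.95 and −0.54 in the liver of aid-/- and mbd4-/- mice, −0.19 and −0.05 in their spleen, and −0.66, −0.99, 0.00 and −0.56 in aid-/-, mbd4-/-, knockdown and wild-type ES cells, so within 1 gene the regions 65.1 and 142 kb downstream were bound and the start was not. Epha4, a receptor of both ephrin classes, was second lowest of the 82 by mean (−1.01), with −0.37 and −1.0 in the liver of aid-/- and mbd4-/- mice, −0.33 and −0.70 in their spleen, and −1.24, −1.66, −1.48 and −1.26 in aid-/-, mbd4-/-, knockdown and wild-type ES cells. Epha7, another A-class receptor, was also among the 5 lowest (mean −0.69), at −0.37 and −0.85 in the liver of aid-/- and mbd4-/- mice, −0.27 and −0.86 in their spleen, and −0.78, −0.90, −0.65 and −0.88 in aid-/-, mbd4-/-, knockdown and wild-type ES cells. Both genes were low on every array, and Epha4 more so in ES cells. Of the 11 Epha4 probes, 2 had a bound signal above background in aid-/- ES cells and 4 in mbd4-/- ES cells.

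Among the plexins, Plxnb2 region 3 had a mean of 3.69 and region 4 (chr15:88990799-88991650, mm9) a mean of 3.41 over the 8 arrays. Region 3 was at 1.99 in aid-/- liver, 2.10 in aid-/- spleen, 4.16 in mbd4-/- liver, 3.80 in mbd4-/- spleen, 5.21 in aid-/- ES cells, 5.16 in mbd4-/- ES cells, 3.21 in the knockdown and 3.89 in wild-type ES cells. Region 4 was at 1.92 and 4.61 in the liver of aid-/- and mbd4-/- mice, 2.17 and 4.21 in their spleen, and 4.44, 4.38, 1.46 and 4.07 in aid-/-, mbd4-/-, knockdown and wild-type ES cells. Regions 3 and 4 lay furthest apart in the knockdown, where region 3 was the higher. The lowest region of all 82 was the promoter region of Plxna2, a receptor component for class 3 semaphorins, with a mean of −1.06. It was at −0.60 and −1.03 in the liver of aid-/- and mbd4-/- mice, −0.77 and −1.09 in their spleen, and −1.57, −1.40, −0.52 and −1.51 in aid-/-, mbd4-/-, knockdown and wild-type ES cells, the knockdown being the least low of the ES arrays. Plxna1 region 1 (chr6:89306596-89307015, mm9), from another class 3 semaphorin receptor, was high on all 8 arrays, at 1.94 and 3.77 in the liver of aid-/- and mbd4-/- mice, 1.97 and 3.26 in their spleen, and 4.68, 4.34, 2.22 and 3.30 in aid-/-, mbd4-/-, knockdown and wild-type ES cells. Its other 2 regions stayed below 1 on all arrays.

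The ligands were mostly low. Of the 23 semaphorin regions the mean over arrays ran from −0.81 to 2.08, with Sema3b region 1 (chr9:107501053-107501542, mm9) at the top and Sema3c at the bottom; both encode secreted class 3 semaphorins. Sema3b region 1 was at 1.56 and 3.00 in the liver of aid-/- and mbd4-/- mice, 1.86 and 3.18 in their spleen, and 2.87, 2.45, −0.20 and 1.95 in aid-/-, mbd4-/-, knockdown and wild-type ES cells. Sema3c was at −1.30 and −0.82 in the liver of aid-/- and mbd4-/- mice, −0.27 and −1.05 in their spleen, and −1.11, −0.44, −0.40 and −1.12 in aid-/-, mbd4-/-, knockdown and wild-type ES cells, with 1 or 2 of its 3 probes above background in the bound channel. Sema4c, a membrane-bound semaphorin, was the other semaphorin among the 5 lowest (mean −0.80). It was at −0.39 and −0.60 in the liver of aid-/- and mbd4-/- mice, −0.82 and −0.42 in their spleen, and −1.56, −0.89, −0.60 and −1.15 in aid-/-, mbd4-/-, knockdown and wild-type ES cells, below 0 throughout. The 9 ephrin regions ran from −0.50 to 1.32, led by Efna2 region 1, which was high on 3 arrays. Ntn1, the gene of the secreted cue netrin-1, had 1 region high on all 8 arrays (mean 3.05; chr11:68026330-68026690, mm9) and 1 long region of 18 probes that was at or below −0.18 on all 8. Ntn1 region 1 was at 1.82 and 3.48 in the liver of aid-/- and mbd4-/- mice, 1.80 and 3.12 in their spleen, and 4.03, 4.47, 2.39 and 3.33 in aid-/-, mbd4-/-, knockdown and wild-type ES cells, and some of its bases lie in the promoter window of another gene. Slit3 encodes a secreted Robo ligand. Its region 2 lies 587 kb downstream of the promoter region, about the annotated length of that gene, and was at 1.55, 1.84, 2.67 and 2.05 in aid-/- liver, aid-/- spleen, mbd4-/- liver and mbd4-/- spleen, against 1.84, 1.21, 0.08 and 0.63 in aid-/-, mbd4-/-, Gadd45a knockdown and wild-type ES cells.

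High and low regions differed in where they lie. A probe was matched to the RefSeq promoter window of its own gene, from 250 bases before to 50 after the start (build GRCm38.p6), when both share at least 20 bases; 42 of the 49 genes have such a window. The 34 regions that match their own window had a median of −0.16 over the 8 arrays, and none of them was high on 7 or 8 arrays. Of the 36 regions without a match, from genes that have a window, 9 were high on 7 or 8 arrays, and their median was 0.57. The other 12 regions, of Ntn1, Plxna1, Plxna4, Sema3b, Sema3f, Sema6a and Slit1, could not be placed this way, and 3 of them were high on 7 or 8 arrays. Within the matched genes, 20 regions lie downstream of the promoter region by less than the gene's length, and 8 of these were high on 7 or 8 arrays.

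A similar split was seen over the array as a whole, where the classes are set by a match to any promoter window. In aid-/- liver 0.0% of the 34 promoter-matched members were high, against 1.8% of the 7336 regions that match any promoter window. The unmatched members of genes with a window were high in 41.7% there, against 18.5% of the 5812 regions without a match. These classes are not alike: unmatched members may match the window of another gene, and the 5812 regions include genes that have no window. The gap was smallest in the knockdown, with 16.7% of unmatched members high against 12.8% of unmatched regions, and in wild-type ES cells these shares were 27.8% and 12.9%. GC content hardly separated the classes, with medians of 56.1% and 56.0% over the probes of matched and unmatched members, and CpG counts per probe had medians of 2.30 and 2.08. No test was made of this split. Across the 82 regions the level in wild-type ES cells and probe GC correlated at r = −0.18, and in the knockdown at 0.05, given as a description.

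**Figure D2:**
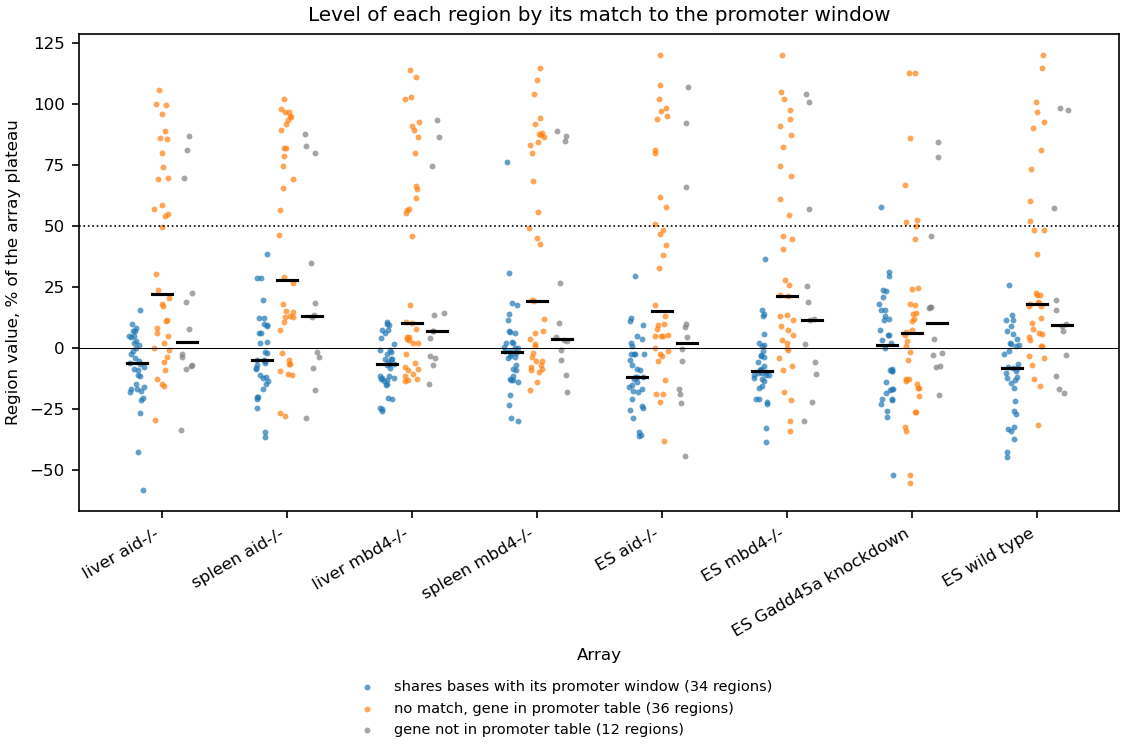
Each point is 1 region on 1 array, placed by its value as a percentage of that array's plateau, with colours for the 3 classes of promoter match, a black bar for each class median and a dotted line at 50%. Points of the 34 matched regions lie below the dotted line except 1 in mbd4-/- spleen and 1 in the Gadd45a knockdown.

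Those 2 exceptions were Efnb1 in mbd4-/- spleen and Epha5 region 1 in the knockdown (1.64). Efnb1, the X-linked gene of ephrin-B1 (chrX:96331375-96332580, mm9, 10 probes), was the only X-linked member region. It was at 0.10 in aid-/- liver, −0.04 in aid-/- spleen, −0.06 in mbd4-/- liver, 2.80 in mbd4-/- spleen, 1.30 in aid-/- ES cells, 1.58 in mbd4-/- ES cells, 0.33 in the knockdown and 0.07 in wild-type ES cells. Spleen of mbd4-/- mice therefore stood apart from the other 3 tissue arrays, and all 10 of its probes were at 1.82 or more there. The median of all 353 X-linked regions moved with it: 2.28 in mbd4-/- spleen, against 0.14 in aid-/- liver, 0.19 in aid-/- spleen and 0.33 in mbd4-/- liver. The sex of the animals is not in the labels, and its part in these values was not tested.

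The knockdown of Gadd45a was set against wild-type ES cells to ask which islands gain or lose binding when it is reduced. A region was listed when both arrays differed by at least 1 log2 unit and at least 75% of its probes differed the same way; with 1 array a group there is no test. Of the 82 members, 14 were listed lower (background over all regions 5.87%) and 1 higher (background 7.61%), with a median difference of 0.00 log2 against 0.18 over all regions. Eph receptors gave 6 of the 14, and Sema6b gave 2. Epha2 region 3 differed most, at −0.74 ± 1.80 in the knockdown against 3.05 ± 0.33 in wild-type ES cells (SD over 7 probes), a difference of −3.79. The other ES arrays were at 3.49 (aid-/-) and 3.77 (mbd4-/-), so the knockdown alone was low.

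The probes of Epha2 region 3 were uneven on the knockdown array. Values there were −2.62, −2.24, 1.40, −0.33, 1.89, −1.22 and −2.05 along the region, against 2.99, 3.11, 2.86, 3.09, 2.57, 3.67 and 3.08 in wild-type ES cells. All 7 probes were lower in the knockdown, and 5 of the 7 had a bound signal well above background there. Probes 3 and 5 kept the most signal.

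Plxnb2 region 4 was at 1.46 in the knockdown against 4.07 in wild-type ES cells (−2.61 log2), whereas region 3 of the same gene, 13.2 kb from the promoter region, was at 3.21 against 3.89 and was not listed. Robo3 region 2 (chr9:37237043-37237303, mm9), in the gene of a divergent Robo receptor, was at −0.46 in the knockdown against 1.76 (−2.22 log2). On all arrays it stood at 1.11 and 1.85 in the liver of aid-/- and mbd4-/- mice, 1.67 and 2.5 in their spleen, and 2.70, 2.64, −0.46 and 1.76 in aid-/-, mbd4-/-, knockdown and wild-type ES cells, so only the knockdown was below 1. Epha8, an A-class Eph receptor (chr4:136501640-136502261, mm9), was at 0.33 against 2.48 in wild type, and Sema3b region 1 was at −0.20 against 1.95, each a difference of −2.15. Over all arrays Epha8 stood at 2.38 and 4.47 in the liver of aid-/- and mbd4-/- mice, 2.30 and 4.01 in their spleen, and 4.29, 3.93, 0.33 and 2.48 in aid-/-, mbd4-/-, knockdown and wild-type ES cells, and here too the knockdown alone was low. Epha3 region 2, from an A-class receptor, was the 1 region listed higher. It was at 0.11 and 0.08 in the liver of aid-/- and mbd4-/- mice, 0.28 and −0.26 in their spleen, and 0.76, 0.93, 1.89 and 0.11 in aid-/-, mbd4-/-, knockdown and wild-type ES cells, and the knockdown array stood above the rest. The listed difference set 1.89 ± 1.54 against 0.11 ± 1.16 (SD over 3 probes), so the probes of each array spread almost as widely as the arrays differed.

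**Figure D3:**
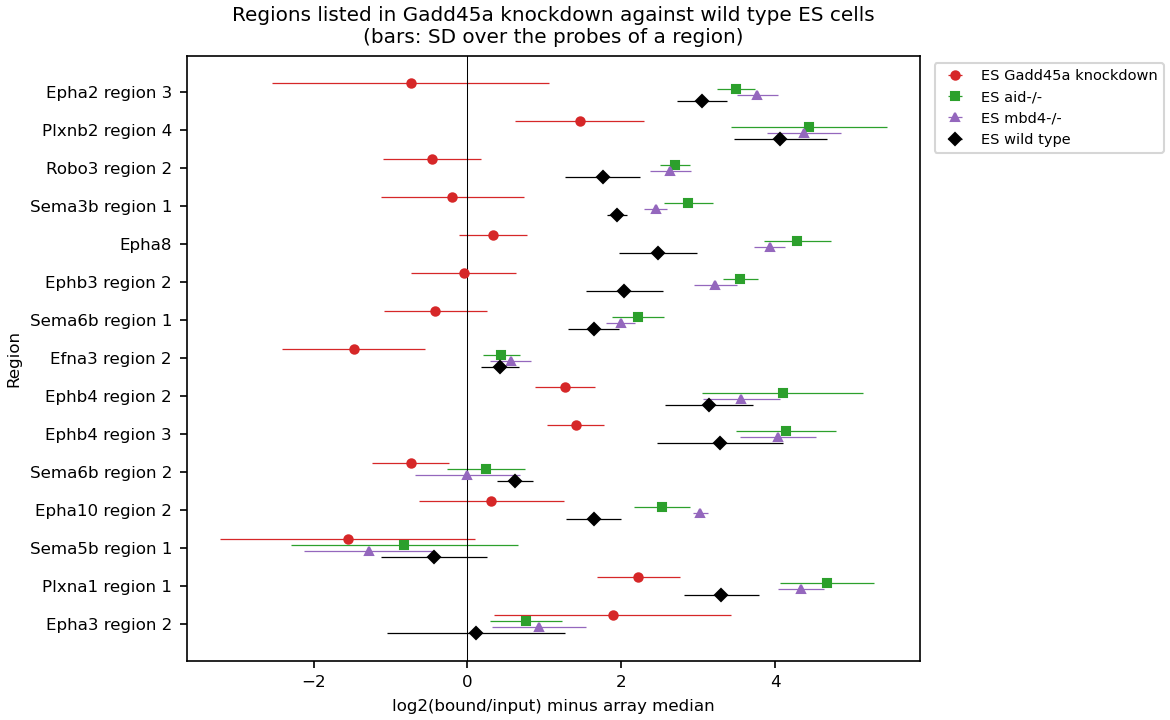
Points give the value of each of the 15 listed regions on the 4 ES arrays, in log2 units relative to the array median, with bars for the SD over probes. In 14 rows the red knockdown point lies left of the wild-type point, and the aid-/- and mbd4-/- points lie right of wild type in all of them but Sema6b region 2 and Sema5b region 1.

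Counted by level, 13 members were high in wild-type ES cells. All 13 were also high in aid-/- and in mbd4-/- ES cells. Of the 823 regions high in wild type over the whole array, 98.4% were high in aid-/- and 97.1% in mbd4-/- ES cells. In the knockdown 6 of the 13 were high (46.2%, against 65.0% of the 823). The 6 that stayed high were Ephb2 regions 3 and 5, Ntn1 region 1, Plxna1 region 1 and Plxnb2 regions 3 and 4. The 7 that did not were Epha2 region 3, Epha8, Ephb3 region 2, Ephb4 regions 2 and 3, Robo3 region 2 and Sema3b region 1. Ephb4 region 3 missed by the least, with 1.41 against a plateau of 2.83. Median probe GC was 52.9% in the 7 and 55.6% in the 6, with overlapping ranges. The knockdown array differed from the wild-type array in depth and composition too: 88.6% against 95.0% of probes had a bound signal above background, and probes under 40% GC had a median of −1.40 against −1.14. It was also scanned on another day and read with another software version, and these cannot be told apart from the knockdown. The part of GC and signal in the result was not tested directly; with each array centred within GC bins, 14 members were listed lower, among them Epha2 region 3, Plxnb2 region 4, Robo3 region 2, Epha8 and Sema3b region 1, and with both arrays scaled to 1 plateau 13 were. Centring each array on its low mode, which moves the median of all regions to 0.74, listed 22 members higher and 10 lower.

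Binding in aid-/- and in mbd4-/- ES cells was set against the same wild-type array, so these comparisons and the knockdown share it. In aid-/- ES cells 11 of 82 members were listed higher (background 6.85%) and 4 lower (background 3.64%). In mbd4-/- ES cells 12 were listed higher (background 7.98%) and 0 lower (background 2.4%). The mbd4-/- array was scanned on another day and read with another software version than the wild-type array. Neither can be told apart from the genotype. Both mutant arrays also differed from wild type in depth and composition. Bound signal exceeded background for 70.6% of probes in aid-/- and 85.2% in mbd4-/- ES cells, against 95.0%. Where probe GC was below 40%, the median value was −0.05 for aid-/-, −0.86 for mbd4-/- and −1.14 for wild type. With each array centred within GC bins, 11 members were listed higher and 1 lower in aid-/-, and 12 higher and 0 lower in mbd4-/-. Median differences were small, at −0.04 log2 in aid-/- (−0.05 over all regions) and 0.11 in mbd4-/- (0.08 over all regions). Epha8 was at 4.29 in aid-/- and 3.93 in mbd4-/-, against 2.48 in wild type. Ephb2 region 3 was at 4.24 and 4.22, against 2.75, and Ephb3 region 2, in a receptor of B-type ephrins, was at 3.55 and 3.22, against 2.04. Across all samples Ephb3 region 2 was at 2.14 and 4.12 in the liver of aid-/- and mbd4-/- mice, 2.17 and 3.09 in their spleen, and 3.55, 3.22, −0.05 and 2.04 in aid-/-, mbd4-/-, knockdown and wild-type ES cells. These were high regions already, and both mutant arrays have higher plateaus (4.36 and 4.31, against 3.38). Read against the plateau, Ephb2 region 3 was at 97.3% in aid-/- and 97.8% in mbd4-/-, against 81.4% in wild type. On 1 plateau 3 members were listed higher and 2 lower in aid-/-, and 2 higher in mbd4-/-; in mbd4-/- the deposited values and normexp listed 0 higher.

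Some listed regions were low in wild type. Efnb1 was at 1.58 in mbd4-/- ES cells against 0.07 in wild type (1.51 log2), and 1.30 in aid-/- ES cells. Medians over X-linked regions were 0.64 in aid-/- and 0.56 in mbd4-/-, against 0.38 in wild type. In the knockdown that median was 0.66, the highest of the ES arrays, while Efnb1 was at 0.33. Epha3 region 1 was at 0.41 in aid-/- ES cells against −1.10, with 1 of its 3 probes above background in the bound channel on each of these arrays. Plxna1 region 1, already high in wild type, was the last of the 5 largest in aid-/- (4.68 against 3.30), and Epha10 region 2 (3.03 against 1.64) and Plxnb2 region 3 (5.16 against 3.89) those in mbd4-/-. Full values of Epha3 region 1 were −0.14 and −0.98 in the liver of aid-/- and mbd4-/- mice, 0.22 and −0.51 in their spleen, and 0.41, −0.13, −0.47 and −1.10 in aid-/-, mbd4-/-, knockdown and wild-type ES cells. The aid-/- value was above the mbd4-/- value in all 3 pairs (0.70 log2, limma adjusted p = 0.385 with tissue as a block). Of the 3 probes of this region, 1 was above background in the bound channel on each aid-/- array. On the mbd4-/- arrays of liver, spleen and ES cells 2, 3 and 3 were, so this order includes values near the floor. The 4 members lower in aid-/- ES cells were Sema6a region 1 (−1.92 against −0.38), Plxnb1 (−0.74 against 0.40), Efnb2 (−1.51 against −0.44) and Efna4 (−0.91 against 0.13); 2 of 6, 3 of 5, 6 of 15 and 2 of 4 of their bound probes were above background on the aid-/- array. Sema6a region 1 was at −0.16 and −0.59 in the liver of aid-/- and mbd4-/- mice, −0.08 and −0.41 in their spleen, and −1.92, −1.28, −0.06 and −0.38 in aid-/-, mbd4-/-, knockdown and wild-type ES cells, and Plxnb1 at −0.19 and 0.42 in the liver of aid-/- and mbd4-/- mice, 0.14 and 0.64 in their spleen, and −0.74, −0.15, 0.84 and 0.40 in aid-/-, mbd4-/-, knockdown and wild-type ES cells. Efnb2, the gene of ephrin-B2, was at −0.33 and −0.18 in the liver of aid-/- and mbd4-/- mice, −0.47 and −0.14 in their spleen, and −1.51, −0.71, −0.25 and −0.44 in aid-/-, mbd4-/-, knockdown and wild-type ES cells, and Efna4, the gene of ephrin-A4, at −0.48 and 0.30 in the liver of aid-/- and mbd4-/- mice, 0.27 and 0.02 in their spleen, and −0.91, −0.40, 0.88 and 0.13 in aid-/-, mbd4-/-, knockdown and wild-type ES cells. In all 4 the aid-/- ES array was the lowest of the 8. The deposited values gave other signs for aid-/- minus wild-type ES cells at Plxnb1 (0.30), Efnb2 (1.00) and, above, Ephb3 region 2 (−0.31).

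In tissue, aid-/- was set against mbd4-/-. In liver 0 of 82 members were listed higher in aid-/- (background 0.875%) and 17 lower (background 8.02%), and in spleen 1 was listed higher (background 0.19%) and 14 lower (background 8.18%). The median difference was −0.05 log2 in liver (−0.01 over all regions) and −0.16 in spleen (−0.13 over all regions). Plxnb2 region 4 was at 1.92 in aid-/- liver against 4.61 in mbd4-/- liver, and at 2.17 in aid-/- spleen against 4.21 in mbd4-/- spleen. Epha8 was at 2.38 in aid-/- liver against 4.47 in mbd4-/- liver, and at 2.30 against 4.01 in spleen. The others among the 5 largest in liver were Plxnb2 region 3 (1.99 against 4.16), Ephb3 region 2 (2.14 against 4.12) and Plxna1 region 1 (1.94 against 3.77).

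All 17 liver regions, and all 14 spleen regions but Efnb1, were high on both arrays of their tissue, where the plateaus themselves differ. As a share of the plateau Epha8 stood at 106% in aid-/- liver against 111% in mbd4-/- liver, and over the 17 liver regions the median difference was −5.63 percentage points. On 1 plateau 1 member was listed lower in liver, Sema3c, which is not among those 17, and with the deposited values 2 were listed higher and 2 lower. Scan day and genotype coincide in the tissues, with aid-/- arrays scanned on 1 day and mbd4-/- arrays on another, so they cannot be told apart. In spleen, Efnb1 stayed listed lower on 1 plateau (−2.31 log2), beside the X-linked medians given above. Epha6, an A-class receptor, stayed listed higher in spleen on 1 plateau, at 0.60 in aid-/- against −0.51 in mbd4-/- before that scaling. Its 8 values were −0.13 and −0.46 in the liver of aid-/- and mbd4-/- mice, 0.60 and −0.51 in their spleen, and −0.83, −0.92, −0.96 and −0.23 in aid-/-, mbd4-/-, knockdown and wild-type ES cells, with aid-/- spleen alone above 0. The remaining regions among the 5 largest in spleen were Plxnb2 region 3 (2.10 against 3.80) and Sema6b region 4 (1.77 against 3.36).

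**Figure D4:**
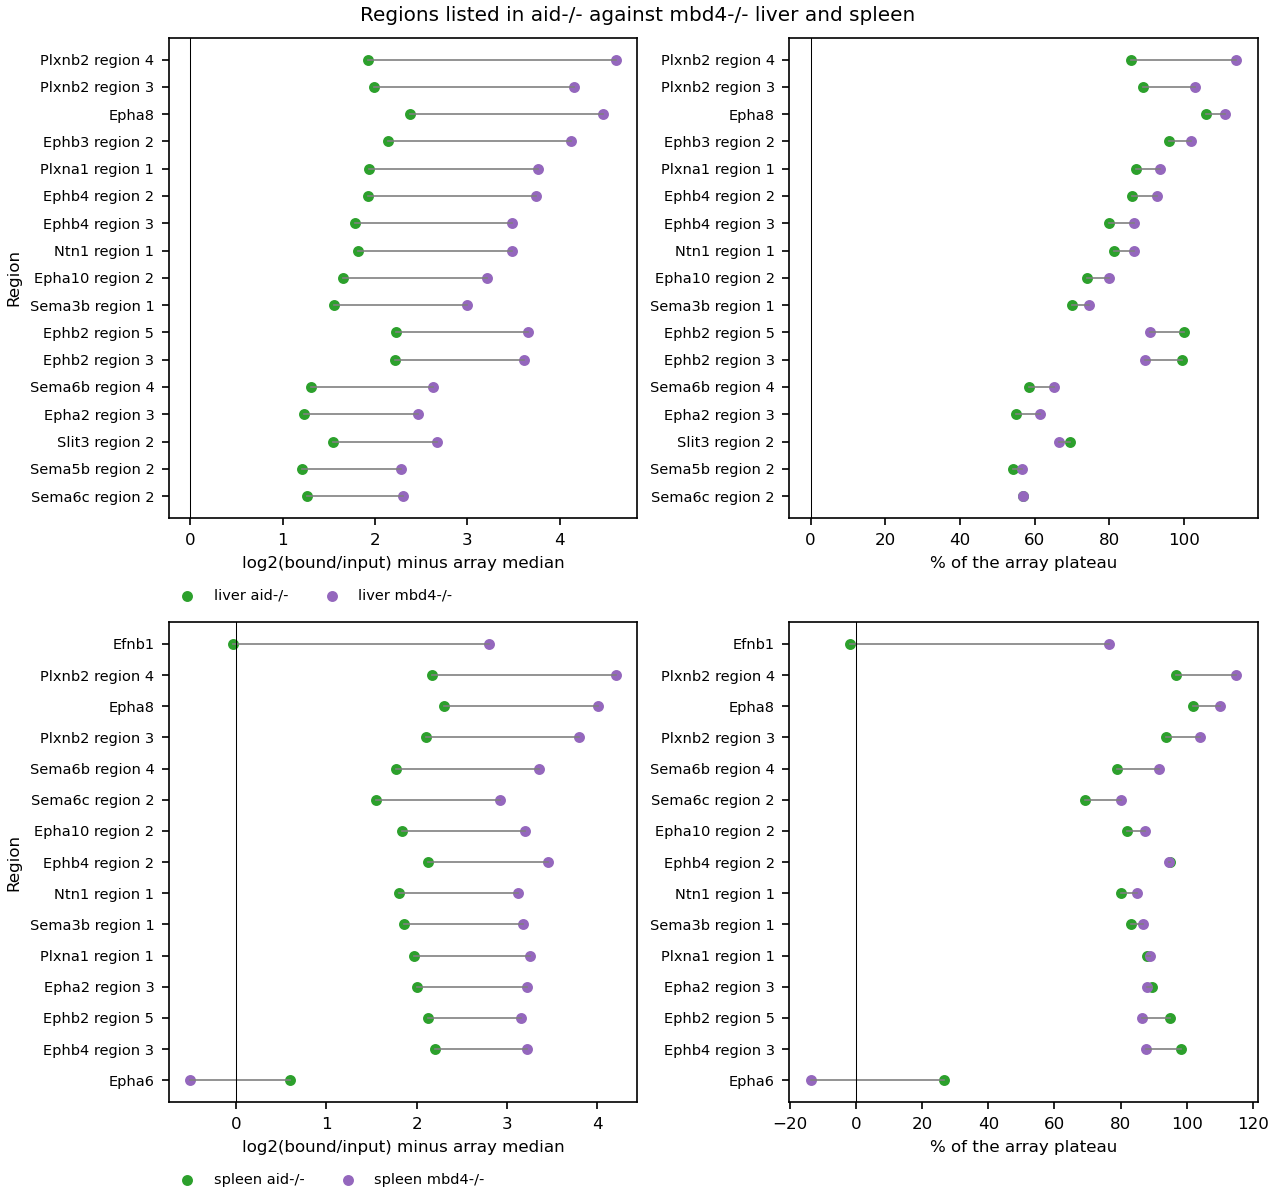
Each row is a region listed in liver (top) or spleen (bottom), with a point for aid-/- and a point for mbd4-/- joined by a line, on the log2 scale at left and as a percentage of the array plateau at right. At right the paired points lie close together in most rows and far apart for Efnb1 and Epha6.

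Over the 3 tissues, limma with tissue as a block called 0 of 82 members between aid-/- and mbd4-/- at an adjusted p under 0.05 (background 0.0% of all regions), and 17 had an unadjusted p under 0.05 (20.7%, against 12.8% of all regions), with a median difference of −0.16 against −0.11. The 3 with the lowest p were lower in aid-/-: Sema6b region 4 differed by −1.19, Epha10 region 2 by −1.14 and Ntn1 region 1 by −1.14 log2, each with an adjusted p of 0.385 in limma. Sema6b region 4 was at 1.31, 1.77 and 1.67 in aid-/- liver, spleen and ES cells, against 2.63, 3.36 and 2.35 in mbd4-/-. Each aid-/- value was below its mbd4-/- partner. The full set for Sema6b region 4 adds 0.68 in the knockdown and 1.30 in wild-type ES cells. Epha10, an Eph receptor gene, had a region 2 at 1.65 and 3.21 in the liver of aid-/- and mbd4-/- mice, 1.84 and 3.20 in their spleen, and 2.53, 3.03, 0.31 and 1.64 in aid-/-, mbd4-/-, knockdown and wild-type ES cells. It and Ntn1 region 1 showed the same order in all 3 pairs. Without the ES pair, limma called 17 members, 16 of them lower in aid-/-, and 1141 regions over the array; this leaves liver and spleen alone, with the plateaus and scan days described.

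Adult tissue was compared with ES cells over all 8 arrays, in which the replicates of a tissue or of ES cells are single arrays of unlike genotype, so p-values measure the spread between those arrays. Limma called 0 of 82 members (background 0.266% of all regions), and 13 had an unadjusted p under 0.05 (15.9%, against 17.6% of all regions), with a median difference of 0.10 against 0.06. With the aid-/- and mbd4-/- arrays alone and genotype as a block, limma called 19 members and 2420 of all regions. In 4 of 82 members all tissue arrays lay above all ES arrays (background 7.41%), and in 1 of 82 all lay below (background 4.22%). They are named here after their values were seen. Epha2 region 1 (chr4:140847464-140847764, mm9; centred −9.88 kb from the promoter region, that is upstream) was at 0.40, 0.34, 0.19 and 0.72 in aid-/- liver, aid-/- spleen, mbd4-/- liver and mbd4-/- spleen, against −1.67, −0.78, −0.38 and −1.07 in aid-/-, mbd4-/-, Gadd45a knockdown and wild-type ES cells. The difference was 1.39 ± 0.27 (SE; limma adjusted p = 0.0657).

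Epha2 region 1 passed the threshold when scan day was a block (1.74 log2, limma adjusted p = 0.0393) and when the knockdown array was left out (1.58 log2, limma adjusted p = 0.0179). It was also called within GC bins, with the deposited values, on 1 plateau, and with genotype or slide as a block. It was not called with normexp, low mode centring, the probe median, joining at 250 bp or no input filter. Leaving out any other single array did not call it either. With 3 probes it drops out at a minimum of 5. On the single scan day that holds both kinds of sample, it averaged 0.37 in aid-/- liver and spleen and −1.37 in aid-/- and wild-type ES cells. The difference with scan day as a block rests on these arrays alone, so these means are no separate check. Epha4 averaged −0.60 ± 0.32 in tissue and −1.41 ± 0.20 in ES cells (SD, n = 4 arrays each, limma adjusted p = 0.111). It was called with genotype as a block (0.85 log2, limma adjusted p = 0.0212) and with slide as a random block (0.86 log2, limma adjusted p = 0.0488). On the 2 ES arrays of the genotype fit, aid-/- and mbd4-/-, 2 and 4 of its 11 bound probes were above background. On the tissue arrays 6 to 9 were. Sema4b region 1, at the start of a semaphorin 4 gene, was at −0.20 and −0.45 in the liver of aid-/- and mbd4-/- mice, 0.65 and 1.12 in their spleen, and −0.79, −0.67, −0.74 and −1.44 in aid-/-, mbd4-/-, knockdown and wild-type ES cells. It averaged 0.28 ± 0.73 in tissue and −0.91 ± 0.36 in ES cells (SD, n = 4 arrays each, limma adjusted p = 0.147). Region 2 of that gene, 11.6 kb downstream, also matches a promoter window of the gene and differed by −0.03 log2. The other 2 regions without overlap between tissue and ES arrays had small differences. Sema6c region 1 averaged −0.15 in tissue and −0.53 in ES cells. Efna3 region 1 averaged −0.10 in tissue and 0.27 in ES cells, with a difference that changed sign to 0.09 under normexp background correction.

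Sema6b region 1, whose probes are printed above, was also chosen after its values were seen. It was at 0.46, −0.24, −0.25 and −0.19 in aid-/- liver, aid-/- spleen, mbd4-/- liver and mbd4-/- spleen, against 2.22, 1.99, −0.42 and 1.64 in aid-/-, mbd4-/-, Gadd45a knockdown and wild-type ES cells. Of the ES arrays 3 lay above all tissue arrays, and the knockdown lay below them. The difference over all arrays was −1.41 (limma adjusted p = 0.203), and without the knockdown array it was −2.01 (limma adjusted p = 0.00711). The region was chosen on these same values, and the array left out is that with the opposite order. The second p-value therefore gives no support for a difference.

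**Figure D5:**
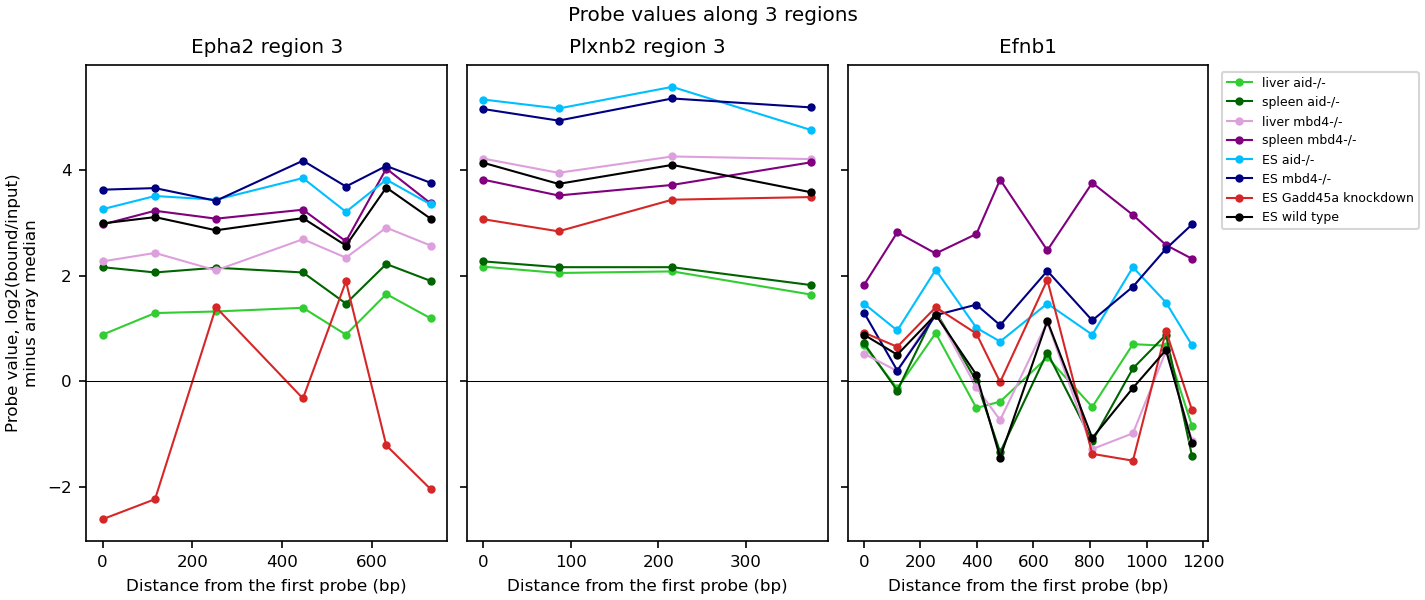
Lines join the probe values of Epha2 region 3, Plxnb2 region 3 and Efnb1 on each of the 8 arrays, in log2 units relative to the array median, against distance from the first probe in bp. The knockdown line is low and uneven in Epha2 region 3 and stays above the aid-/- tissue lines in Plxnb2 region 3, and the mbd4-/- spleen line is highest along most of Efnb1.

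Liver was compared with spleen over the 4 tissue arrays with genotype as a block. Limma called 0 of 82 members (background 0.183% of all regions), and 10 had an unadjusted p under 0.05 (12.2%, against 7.35% of all regions), 9 of them lower in liver. The median difference was −0.06, against 0.05 over all regions. Sema4b region 1 (chr7:87331528-87332011, mm9; 5 probes, 3 of which match its promoter window) had the lowest p: −0.20 and −0.45 in aid-/- and mbd4-/- liver, against 0.65 and 1.12 in aid-/- and mbd4-/- spleen. The difference was −1.21 ± 0.24 (SE, limma adjusted p = 0.0663), and on 1 plateau it was −1.21 with a limma adjusted p of 0.0167. Sema4b region 2, which also matches a promoter window of that gene, differed by 0.06. Next by lowest p were Epha2 region 3 (−0.76, limma adjusted p = 0.21) and Ephb2 region 1 (−0.63, limma adjusted p = 0.365), each lower in liver within both genotypes. The fit has 1 residual degree of freedom per region before moderation.

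Other genes of the same pathways, which are no members, were counted for comparison. Of 71 listed guidance genes (co-receptors such as neuropilins, other cues and signalling proteins) 55 had 74 regions. Limma called 0 of the 74 in each of the 3 fits, and 12, 10 and 5 had an unadjusted p under 0.05 for tissue against ES cells, aid-/- against mbd4-/- and liver against spleen. The shares over all regions were 17.6%, 12.8% and 7.35%. In the knockdown 6 were listed higher and 3 lower, in aid-/- ES cells 5 and 4, in mbd4-/- ES cells 8 and 1, in aid-/- against mbd4-/- liver 1 and 10, and in spleen 0 and 7. In the same order, the shares of all regions listed higher and lower were 7.61% and 5.87%, 6.85% and 3.64%, 7.98% and 2.4%, 0.875% and 8.02%, and 0.19% and 8.18%. Medians of this list lay between −0.38 in aid-/- ES cells and 0.25 in the knockdown.

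Arrays were checked against islands of marker genes. Germline genes, which are known to be methylated in somatic cells, had 8 regions with medians of 1.52 in the knockdown and 2.22 in aid-/- spleen to 3.79 in aid-/- ES cells on the others. In the knockdown against wild type, 4 of the 8 were listed lower (background over all regions 5.87%). Lists for ES cells (9 regions), liver (4), blood and spleen (13), stroma (8) and neural cells (7) had medians between −0.75 and 0.92 on the 8 arrays. Binding at an island shows neither presence nor absence of a cell type, so the labelled tissues could not be checked this way. Over the 82 members arrays correlated at r = 0.528 (knockdown and mbd4-/- spleen) to 0.971 (aid-/- and mbd4-/- ES cells); these regions share their probes and design on all arrays.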

How the data were processed

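Spot intensity was read from the deposited scanner output of 8 Agilent arrays with 2 colours (Cy3 input, Cy5 bound, the same way round on each), per the file headers made with Feature Extraction 10.7.3.1 for the mbd4-/- and Gadd45a knockdown ES arrays, whose headers also state spatial detrending, and 10.9.1.1 for the others. The processed signals used are background-subtracted and linearly dye-normalised, as the file headers record, and positions are in mm9. The deposited log10 ratio of red over green, computed by the scanner software per the file headers, served only to check direction. The deposited value table is a score of unstated scale and log base; its array medians ran from −0.21 to −0.02 and it correlated with the scanner log2 ratio at r = 0.901 to 0.974, so its direction is known, and it was rescaled and used only as an alternative. No header or label used here records how it was made.

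Of 94687 spots, 5950 controls, 326 probes without a position, 132 outlier-marked and 7174 whose input signal failed the background criterion on at least 1 array were dropped. The log2 ratio was centred on each array's median with no loess or quantile step. Regions take the name most of their probes carry in the later of 2 versions of the array design; the earlier version names 552 member probes. Tests used limma 3.58.1 in R 4.3.3 on all 13148 regions with Benjamini-Hochberg adjustment, and were checked on simulated data, as was the rule for array pairs. Background correction with normexp (offset 50) used median spot signals, because mean signals were read from 2 files only. RefSeq sequences gave promoter windows for 42 of 49 genes.

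The members and lists were chosen with earlier results of these data known. Regions were named with their values when among the 3 with the lowest p in the limma fits of genotype and of liver against spleen, the 5 listed with the largest difference each way in each array pair, the 5 highest and 5 lowest means, and the X-linked region; others are named as chosen after their values were seen. Each group is 1 array, so the number of arrays limits the precision. Alternatives varied background, centring, plateau, input filter, probe minimum, joining distance, probe median, thresholds, blocks and single arrays; centring within probe GC bins of 2.5 points and the settings applied to the count of high regions were added after seeing the data.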

Additional observations from a re-analysis of the deposited data

Results flagged for a closer look

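Among 32 named regions, the 4 ES arrays and the 4 tissue arrays were searched for a value whose gap to its nearest neighbour took up most of the range (Dixon's 95% criterion), and 6 of 64 sets held one; chance alone marks about 1 in 20 sets chosen without regard to their values, a rate that does not apply here, because the regions were named for differences between these same arrays. The sets also mix genotypes. On the Gadd45a knockdown array, Epha2 region 3 was at −0.74 with the other ES arrays at 3.05 to 3.77, Plxnb2 region 4 was at 1.46 with the others at 4.07 to 4.44, and Plxna2, which had the lowest mean of the 82 regions, was at −0.52 with the others at −1.57 to −1.40. Efnb1 was at 2.80 in mbd4-/- spleen with the other tissue arrays at −0.06 to 0.10. Sema4b region 1 was at −1.44 in wild-type ES cells with the others at −0.79 to −0.67. Sema6b region 1 was at 0.46 in aid-/- liver with the other tissue arrays at −0.25 to −0.19.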

How the results depend on the processing

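Counts are of member regions, called by limma or listed higher and lower in an array pair; the cause of a change was not tested unless named. Adult tissue against ES cells called 0 in the main setting, 1 within GC bins, 4 with the deposited values, 3 on 1 plateau, 5 with scan day as a block, 2 with slide as a random block, 19 with the aid-/- and mbd4-/- arrays and genotype as a block (2420 regions of the whole array, against 35 in the main setting), and 0 to 2 leaving out 1 array at a time, the 2 being without the knockdown. For aid-/- against mbd4-/- leaving out 1 array also drops its pair and gave 0 to 17. Liver against spleen called 2 with low mode centring and 1 on 1 plateau, against 0. In aid-/- against wild-type ES cells the counts higher were 3 (normexp), 2 (deposited), 3 (1 plateau), 4 (5 or more probes) and 3 (difference of 1.5), against 11, and lower 0 (normexp), 2 (deposited, 1 plateau, no input filter) and 1 (low mode, GC bins, difference of 1.5), against 4. In mbd4-/- ES cells they were 0 higher (normexp, deposited), 2 (1 plateau), 6 (5 or more probes) and 1 (difference of 1.5), against 12, and 1 (joining at 250 bp) and 2 lower (median of probes), against 0. In the knockdown 14 lower became 6 with 5 or more probes, where 50 members remain, and 1 higher became 0 (normexp, 5 or more probes), 4 (deposited), 22 (low mode centring, which moves the median of all regions to 0.74), 3 (median of probes, GC bins) and 2 (joining at 250 bp). In liver 17 lower became 2 (deposited), 1 (1 plateau), 8 (5 or more probes) and 9 (difference of 1.5), and 0 higher became 2 (deposited) and 1 (low mode, no input filter, joining at 250 bp). In spleen 14 lower became 5 (deposited, difference of 1.5), 1 (1 plateau) and 8 (5 or more probes), and 1 higher became 0 (normexp, difference of 1.5), 2 (1 plateau) and 3 (no input filter). The 12 regions high on 7 or 8 arrays became 6 with 5 or more probes; all 12 were high on the 7 arrays other than the knockdown. The other 97 counts stayed within 1.5 times of the main value. Of single regions, Efna3 region 1 changed sign with normexp (0.09), and with the deposited values Ephb3 region 2 (−0.31), Plxnb1 (0.30) and Efnb2 (1.00) did in aid-/- against wild-type ES cells. Leaving out arrays could not be done for liver against spleen, which leaves no residual degrees of freedom, and scan day there is the same block as genotype. Scan day could not be a block for aid-/- against mbd4-/-, where all aid-/- arrays share 1 scan day and no mbd4-/- array was scanned then. Arrays were paired by tissue or genotype as described; no block by replicate number was fitted, since the labels give none.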
